A study of Gallus gallus with 10 samples.

Results

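The proteasome genes of chick choroid were taken from the deposited expression table by name: every gene whose symbol starts with PSM, a letter from A to G and a digit. This gave 39 genes of 24355 listed, and all 39 had a level of 1 FPKM or more in at least 5 of the 10 libraries, the limit that left 11357 genes for testing. FPKM are fragment counts scaled to transcript length and to library size, so that levels can be compared between genes. Of the 39, 38 code for proteasome subunits, activators, an inhibitor or assembly chaperones. The remaining one, PSMC3IP, is no subunit: it is a recombination factor named for binding the subunit PSMC3, and it is described separately. The genes PSMA8, PSMB5, PSMB8 to PSMB11, PSMC4, PSMD8, PSME1 and PSME2 were not analysed here.

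The choroid is the pigmented, vascular layer between the retina and the sclera. The tissue was a whole homogenate of choroid from normal chicks (strain given as Domesticus) at post hatch day 15, and the question was how nitric oxide changes gene expression in it. The treated group (n = 5) was kept with 1.5 mM PAPA-NONOate, a compound that releases nitric oxide as it decays, at 37 °C and 5% CO2 over 24 hours. The control group (n = 5) is labelled as minus PAPA-NONOate with otherwise the same incubation text, and both groups carry the replicate numbers 2, 3, 4, 5 and 8. All treated libraries bear the letter R and all controls the letter L, whose meaning the labels do not give, so that the letter and the treatment cannot be told apart. Since no label names separate animals, a p-value here covers just the variation among these 10 samples, which may be technical. Read counts are not in the table and the absolute depth is unknown, and relative depth, read from the spacing of low values, was 0.659 to 1 of that of control replicate 2.

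The proteasome is the large protease that degrades proteins marked with ubiquitin. Its 20S core is a barrel of alpha rings, which form the gate, and beta rings, which hold the active sites. The 19S particle caps the barrel: its base, a ring of ATPases with a few scaffold and receptor subunits, unfolds the substrate and feeds it into the core, and its lid takes off the ubiquitin. Dedicated chaperones assemble both parts, and other caps and inhibitors can replace or block the 19S particle. These roles are known mainly from yeast and mammals.

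None of the 38 subunit and cofactor genes passed the test between treated and control choroids on the deposited scale, and the one call among the 39 was PSMC3IP, which was lower with PAPA-NONOate. That is 2.56% of the 39 genes, where 9.34% of all 11357 genes were called, 1.93% higher and 7.41% lower (limma on log2(FPKM + 0.5), Benjamini-Hochberg adjusted p under 0.05 over all genes). Before adjustment, 4 of the 39 had p under 0.05 by limma (PSMC3IP, PSMG4, PSMD10 and PSMC6), 10.3% beside 28.1% of all genes tested. An exact Wilcoxon test gave 5 before adjustment, 12.8% beside 20.7% of all genes, and called none of the 39 and 0 of all genes after it. With 5 libraries per group, genes without overlap (9.32% of all genes) share the lowest p of this test. Their adjusted p was 0.0852, so that no gene here could pass it. The median log2 fold change of the 38 genes was 0.03, against -0.18 for all genes tested, and 29 of the 38 exceeded that median. The fold changes of the 38 ran from -0.53 (PSMG4) to 0.25 (PSMD9), with an SD over genes of 0.19 against 0.44 over all genes tested.

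The intervals of these fold changes were narrow. For all 38 genes the 95% interval, not adjusted over genes, lay within a 2-fold change in either direction, as it did for 79.9% of all genes tested. It lay within 1.5-fold for 35 of the 38, against 43.3% of all genes, and the 3 wider ones were the chaperones PSMD10, PSMG2 and PSMG4. On the deposited scale the interval spanned 0 for 35 of the 38, the others being PSMC6, PSMD10 and PSMG4. The lowest bound was -0.92 and the highest 0.56 on the log2 scale. After the median-ratio scaling described below, the interval spanned 0 for just 20 of the 38. It then lay within 2-fold for all 38 and within 1.5-fold for 34. All genes tested span every level from 1 FPKM up, and no comparison with genes of like level was made.

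**Figure D1:**
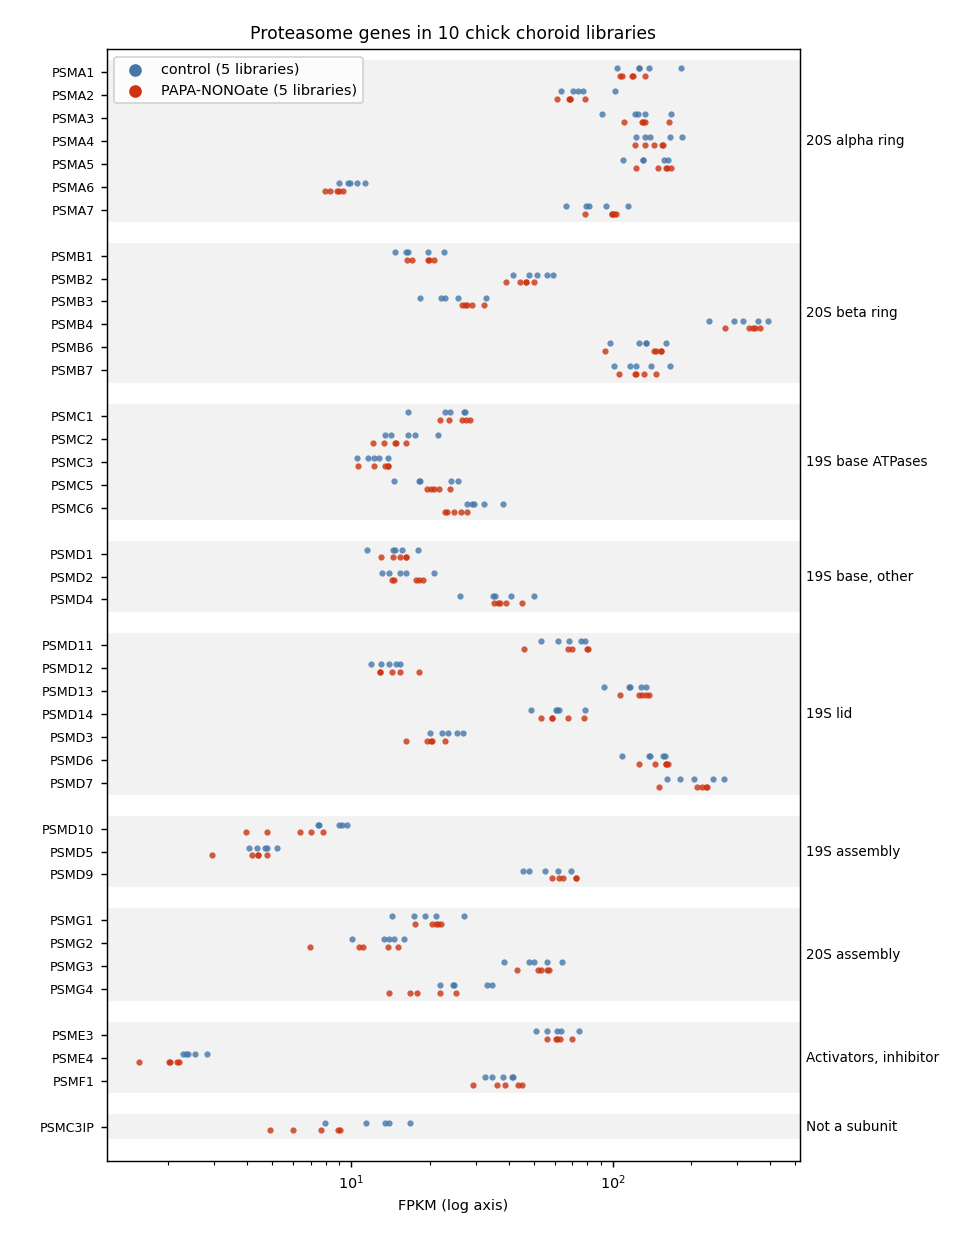
FPKM (log axis) of the 39 genes in each of the 10 libraries, one point per library, with controls in blue above PAPA-NONOate in red and the genes ordered by role. Single values span from 1.54 FPKM for PSME4 to 393 FPKM for PSMB4, and the groups overlap for all genes but PSMC6 and PSME4, both lower with PAPA-NONOate.

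Levels differed far more between subunits than between groups. In the 20S core, mean FPKM over the 10 libraries ran from 9.37 for PSMA6 to 326 for PSMB4, a 34.7-fold range among proteins that the complex holds in equal numbers. PSMB4 stood within the top 1.51% of all genes tested. The alpha ring had a median of 126 FPKM over its 7 genes and the beta ring 87.9 FPKM over 6 genes. The 5 ATPases of the base were lower and closer together, from 12.5 FPKM for PSMC3 to 28.1 FPKM for PSMC6. The 7 lid genes ran from 14.3 FPKM for PSMD12 to 209 FPKM for PSMD7. PSME4 was the lowest of all 39, at 2.22 FPKM. The sources used here do not say how fragments of near-identical transcripts were divided, so that the order of genes rests on the annotation used.

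In the alpha ring none of 7 genes passed the test, with fold changes from -0.20 (PSMA6) to 0.16 (PSMA7) and a median of -0.06 on the log2 scale. PSMA5, one of the subunits of this ring, was at 157, 131, 131, 109 and 163 FPKM in control replicates 2, 3, 4, 5 and 8, and at 123, 149, 160.0, 161 and 168 FPKM in the PAPA-NONOate replicates of the same numbers (the order used throughout). The treated libraries lay mostly in the upper part of the control range, with replicate 8 above it and replicate 2 among the lower controls. The means were 152 ± 17.5 FPKM with PAPA-NONOate and 138 ± 21.8 FPKM in controls (SD, n = 5 per group), a log2 fold change of 0.14 ± 0.14 (SE) at an adjusted p of 0.526. PSMA7 was at 94.1, 80.9, 79.3, 66.2 and 115 FPKM in controls and at 78.5, 98.96, 103, 99.5 and 101 FPKM with PAPA-NONOate. Its treated libraries lay close together apart from replicate 2, inside a control range set by replicates 5 and 8, and a log2 fold change of 0.16 ± 0.15 (SE) at an adjusted p of 0.506 resulted.

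The beta ring carries the active sites. PSMB6, the subunit that cuts after acidic residues, was at 135, 134, 126, 97.6 and 160.4 FPKM in controls and at 93.05, 144, 146, 153 and 153 FPKM with PAPA-NONOate. The lowest control was replicate 5 and the lowest treated library was replicate 2, and the groups overlapped. Its log2 fold change was 0.07 (95% interval -0.29 to 0.44, adjusted p = 0.809). PSMB7, the subunit that cuts after basic residues, was at 139.7, 117, 123, 101 and 166 FPKM in controls and 106, 122, 132, 122 and 147 FPKM with PAPA-NONOate. All its treated libraries lay inside the control range, and its log2 fold change was -0.03 (95% interval -0.34 to 0.29, adjusted p = 0.928). PSMB4, a structural subunit and the most abundant of the 39, was at 359, 290.1, 316, 234 and 393 FPKM in controls and at 269, 345, 367, 331 and 350.0 FPKM with PAPA-NONOate, again within the control range (log2 fold change 0.08, adjusted p = 0.778). PSMB3, another structural subunit, was at 25.6, 22.8, 22.1, 18.3 and 32.7 FPKM in controls and 26.5, 28.99, 32.1, 27.6 and 27.3 FPKM with PAPA-NONOate. Here all treated libraries lay above 4 of the 5 controls, and only control replicate 8 was higher, with a log2 fold change of 0.25 ± 0.15 (SE) at an adjusted p of 0.281. The 6 genes had a median log2 fold change of 0.07, with PSMB2 lowest at -0.17 and PSMB3 highest, and none passed the test.

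Among the ATPases that unfold substrates, PSMC6 was the only one whose groups did not overlap on the deposited scale. It was at 32.2, 28.9, 27.8, 29.5 and 38.05 FPKM in controls and at 26.4, 22.9, 23.1, 27.7 and 24.7 FPKM with PAPA-NONOate, so that the highest treated library (replicate 5) lay just under the lowest control (replicate 4). The difference, a log2 fold change of -0.32 ± 0.12 (SE) at an adjusted p of 0.107, did not pass the test over all genes. On the deposited scale PSMC6 and PSME4 were 2 of 39 genes whose groups did not overlap, both lower. Of all genes 9.32% did not overlap and 7.48% were lower in that way. After median-ratio scaling the groups of PSMC6 overlapped, with a log2 fold change of -0.13 at an adjusted p of 0.478. As deposited, the 4 other ATPase genes had log2 fold changes of 0.13 (PSMC1), -0.20 (PSMC2), 0.07 (PSMC3) and 0.10 (PSMC5), with adjusted p of 0.368 or more.

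The 3 other genes of the base lay close to each other. PSMD4, a receptor that binds ubiquitin chains, was at 40.95, 35.3, 34.7, 26.1 and 49.96 FPKM in controls and at 36.3, 45.1, 35.3, 36.99 and 39.05 FPKM with PAPA-NONOate. The treated libraries sat inside the control range, between control replicates 5 and 8, with a log2 fold change of 0.07 ± 0.16 (SE) at an adjusted p of 0.806. PSMD1 and PSMD2, the large scaffold subunits, came to log2 fold changes of 0.03 (PSMD1) and 0.08 (PSMD2; adjusted p = 0.913 and 0.751).

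In the lid, none of 7 genes passed the test. PSMD14, the metalloprotease that cleaves ubiquitin from substrates, was at 62.5, 61.3, 60.8, 48.5 and 78.4 FPKM in controls and at 53.1, 58.4, 67.6, 58.7 and 77.5 FPKM with PAPA-NONOate. All treated libraries lay within the control range, and its log2 fold change was 0.02 (95% interval -0.29 to 0.34, adjusted p = 0.94). The other lid genes ran from -0.25 (PSMD3, adjusted p = 0.213) to 0.12 (PSMD13, adjusted p = 0.568), with a median over all 7 lid genes of 0.02. PSMD13 was at 134, 115, 116, 92.5 and 128 FPKM in controls and 107, 127, 135, 137 and 129 FPKM with PAPA-NONOate. PSMD6 was at 156, 139, 137, 109 and 159 FPKM in controls and at 126, 146, 159.9, 159.6 and 163 FPKM with PAPA-NONOate. For both, control replicate 5 was the lowest library of all 10 and the treated group reached slightly above the highest control.

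The assembly chaperones held the widest spread of fold changes. PSMD9, a chaperone of the 19S base, had the largest positive fold change of the 39: it was at 54.96, 47.8, 61.6, 45.4 and 69.2 FPKM in controls and at 58.6, 64.8, 72.3, 62.4 and 72.2 FPKM with PAPA-NONOate. All treated libraries were above 3 of the 5 controls, with control replicates 4 and 8 inside the treated range, and a log2 fold change of 0.25 ± 0.14 (SE) at an adjusted p of 0.238 did not pass the test. PSMD10, also known as gankyrin and a chaperone of the same base, went the other way. It was at 9.66, 7.48, 9.20, 7.54 and 8.96 FPKM in controls and at 3.97, 6.35, 7.79, 6.997 and 4.75 FPKM with PAPA-NONOate, where only treated replicate 4 reached into the control range. The means were 5.97 ± 1.58 FPKM with PAPA-NONOate and 8.57 ± 0.997 FPKM in controls (SD, n = 5 per group), a log2 fold change of -0.52 ± 0.17 (SE) at an adjusted p of 0.0807, short of the threshold. It passed in 1 alternative, after median-ratio scaling without PAPA-NONOate replicate 4 (adjusted p = 0.0393). PSMD5, the remaining base chaperone, came to -0.16 on the log2 scale (adjusted p = 0.515).

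Of the 4 chaperones that build the 20S core, PSMG4 had the lowest fold change. It was at 24.7, 24.5, 33.1, 21.9 and 34.5 FPKM in controls and at 13.9, 17.8, 21.95, 25.2 and 16.7 FPKM with PAPA-NONOate. Treated replicates 4 and 5 overlapped with the lower controls and the other 3 lay under all controls. The means were 19.1 ± 4.45 FPKM with PAPA-NONOate and 27.7 ± 5.66 FPKM in controls (SD, n = 5 per group), a log2 fold change of -0.53 ± 0.18 (SE) at an adjusted p of 0.0777, which did not pass. It passed without PAPA-NONOate replicate 5 and with library weights, where its lowest adjusted p was 0.0287. PSMG3, which pairs with PSMG4 in its complex, came to 0.04 on the log2 scale (adjusted p = 0.87). PSMG1 and PSMG2, the other chaperone pair, had 0.08 and -0.25 (adjusted p = 0.775 and 0.412).

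The alternative caps and the inhibitor did not pass the test either. PSME3, the activator of the nuclear proteasome, was at 61.2, 56.1, 63.6, 50.8 and 74.1 FPKM in controls and at 56.2, 61.3, 60.8, 62.9 and 69.7 FPKM with PAPA-NONOate, with all treated libraries inside the control range and a log2 fold change of 0.03 ± 0.12 (SE) at an adjusted p of 0.892. PSMF1, an inhibitor of the core in vitro, was at 41.3, 34.4, 41.7, 32.5 and 37.9 FPKM in controls and 29.1, 38.9, 43.4, 44.96 and 36.01 FPKM with PAPA-NONOate. Its treated range enclosed the control range, with a log2 fold change of 0.02 ± 0.14 (SE) at an adjusted p of 0.927. PSME4, the activator that recognises acetylated histones in mammalian sperm cells and damaged chromatin, was at 2.81, 2.33, 2.52, 2.28 and 2.37 FPKM in controls and at 2.16, 2.01, 2.20, 2.02 and 1.54 FPKM with PAPA-NONOate. Every treated library was under every control on the deposited scale, by a small step. The difference had a log2 fold change of -0.26 ± 0.15 (SE) at an adjusted p of 0.284. After median-ratio scaling the groups of PSME4 overlapped, with a log2 fold change of -0.10 at an adjusted p of 0.683.

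**Figure D2:**
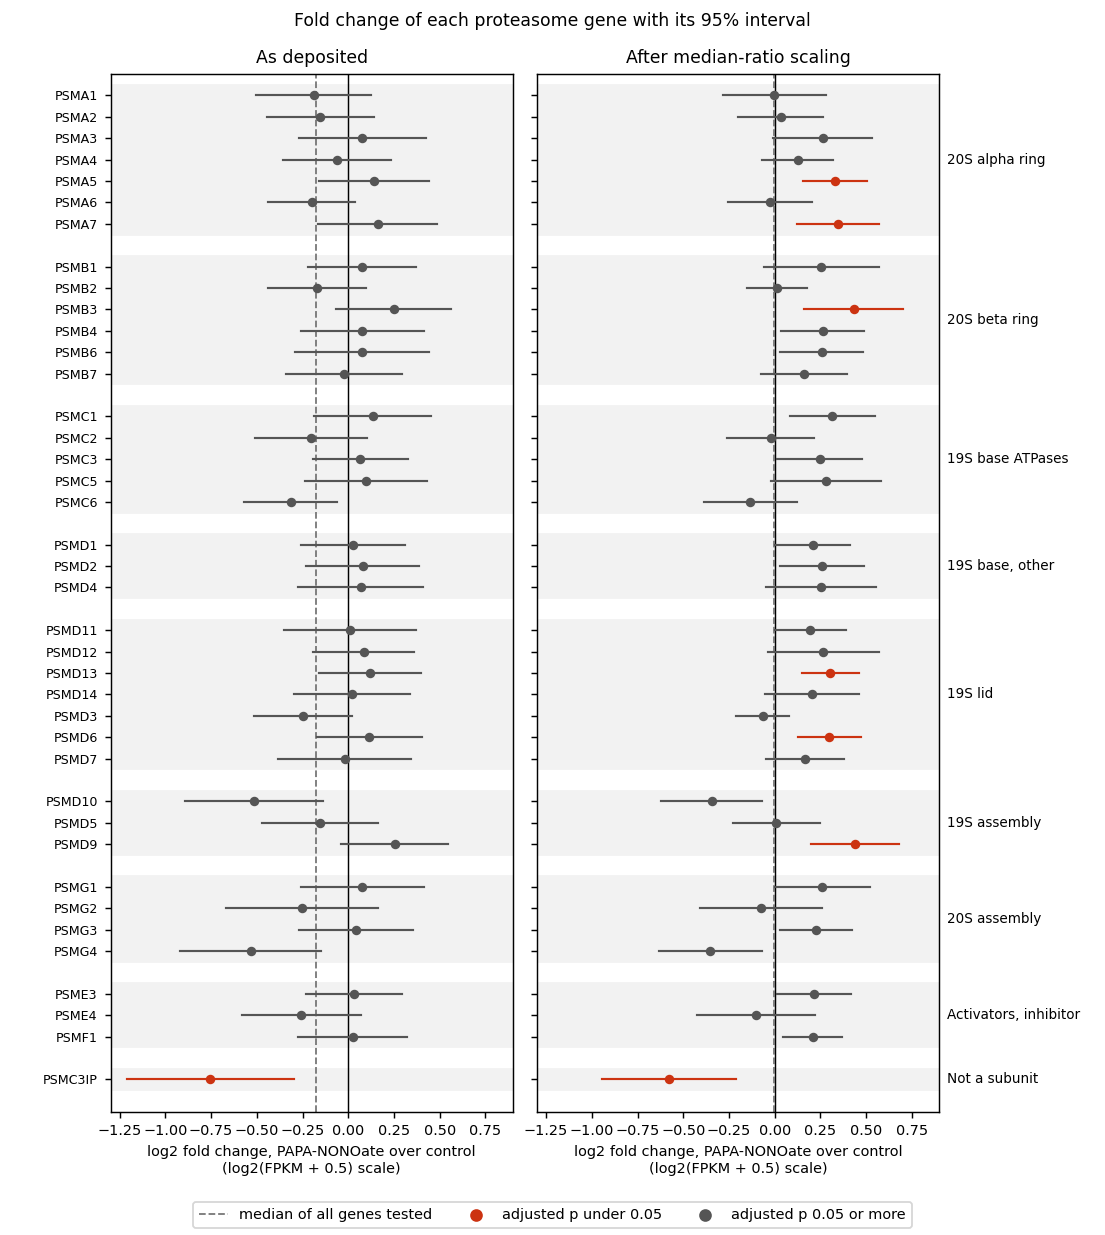
Log2 fold change (PAPA-NONOate over control) of each of the 39 genes with its 95% interval, on the log2(FPKM + 0.5) scale as deposited (left) and after median-ratio scaling (right). Red marks adjusted p under 0.05, the dashed line is the median of all genes tested. On the left only PSMC3IP is red, and on the right PSMA5, PSMA7, PSMB3, PSMD13, PSMD6 and PSMD9 join it on the positive side.

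PSMC3IP, also called HOP2, acts with MND1 in homologous recombination in mammals and yeast. It was at 11.4, 13.5, 13.97, 7.91 and 16.8 FPKM in controls and at 4.91, 7.68, 5.995, 8.88 and 9.02 FPKM with PAPA-NONOate. All treated libraries lay under 4 of the 5 controls, and control replicate 5 lay among the treated libraries. It fell with PAPA-NONOate: the means were 7.30 ± 1.81 FPKM with PAPA-NONOate and 12.7 ± 3.30 FPKM in controls (SD, n = 5 per group), a log2 fold change of -0.75 ± 0.21 (SE) at an adjusted p of 0.042. The call lay near the threshold. It was lost without control replicate 2, 3, 4 or 8 and without PAPA-NONOate replicate 2, 3 or 4 (adjusted p 0.069 to 0.0972), and over all alternatives the adjusted p ran from 0.0118 to 0.153. In the same libraries the 6 tested genes of a list of cell division markers were all called lower, where 7.41% of all genes were. The summed FPKM of the list was 14.8 to 23.4 with PAPA-NONOate and 39.7 to 110 in controls. Of these genes KIF11, at 0.668 FPKM with PAPA-NONOate and 3.70 FPKM in controls, met the limit for testing through the controls, which favoured a fall. PLK1, near 1 FPKM with PAPA-NONOate and at 3.91 FPKM in controls, met it mainly through the controls too. The calls of KIF11 and PLK1 thus carry little weight. In bulk tissue, fewer cells of a type and less RNA per cell cannot be told apart, and the part of dividing cells in the level of PSMC3IP was not tested.

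The scale of the libraries mattered for the other members. The fold change of the median gene was -0.18 on the deposited scale, so that a fold change near 0 lay above that of most genes. When each library was divided by the median ratio of its genes to their geometric mean over libraries (factors of 0.756 to 1.18), the median gene came to 0.00, and 6 of the 39 genes were called higher. These were 15.4% of the 39, beside 6.96% of all genes called higher on that scale. They were alpha ring genes PSMA5 and PSMA7, beta ring gene PSMB3, lid genes PSMD13 and PSMD6, and the base chaperone PSMD9. PSMC3IP was called lower here too, with a log2 fold change of -0.58 ± 0.17 (SE) at an adjusted p of 0.0417, where 6.6% of all genes were lower.

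After this scaling PSMD13 was at 113, 113, 108, 96.3 and 114 scaled FPKM in controls and at 141, 134, 138, 126 and 132 with PAPA-NONOate. The groups no longer overlapped, and the log2 fold change was 0.30 ± 0.07 (SE) at an adjusted p of 0.0179. PSMA5 came to 133, 128, 121, 114 and 144 scaled FPKM in controls and to 163, 157, 164, 147 and 171 with PAPA-NONOate, again without overlap, a log2 fold change of 0.33 ± 0.08 (SE) at an adjusted p of 0.0215. PSMD6 followed the same order, at 132, 136, 127, 113 and 141 scaled FPKM in controls and 167, 154, 164, 146 and 167 with PAPA-NONOate, with 0.30 ± 0.08 (SE) at an adjusted p of 0.0288. For PSMD9, PSMB3 and PSMA7 some libraries still overlapped, and the log2 fold changes were 0.44 ± 0.11 (SE) at an adjusted p of 0.0237, 0.43 ± 0.12 (SE) at an adjusted p of 0.0389 and 0.35 ± 0.10 (SE) at an adjusted p of 0.0446. PSMC1 did not overlap after scaling either but missed the threshold, at 0.32 ± 0.11 (SE) at an adjusted p of 0.0717. In all, 4 of the 39 genes lay wholly above the controls on this scale, where 6.78% of all genes did, and none wholly below, where 6.04% did.

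Most of these calls depended on single libraries. With 1 library left out and the scaling kept, PSMD13 was called in all 10 fits and PSMA5 in 9, PSMD9 in 5, PSMD6 in 3, and PSMA7 and PSMB3 in 2 each. Only PSMD13 was called without control replicate 5, which had the lowest proteasome levels, and 8 genes were called higher without control replicate 8, which had the highest level among controls. The count was 2 without control replicate 2 or 3, or PAPA-NONOate replicate 4 or 8. It was 3 without control replicate 4 and also without PAPA-NONOate replicate 2. Leaving out PAPA-NONOate replicate 3 gave 4 called, and leaving out PAPA-NONOate replicate 5 gave 6. Quantile normalization called PSMA5, PSMD13, PSMD6 and PSMD9 higher (6.45% of all genes) and none of the 39 lower (5.99%). The differences behind the calls were small: the largest of the 6 log2 fold changes after median-ratio scaling was 0.44.

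Most proteasome genes were high or low in the same libraries. Control replicate 8 held the highest FPKM of 23 of the 39 genes, and control replicate 5 the lowest of 21. PAPA-NONOate replicate 2 held the lowest of 14 more. After median-ratio scaling these counts were 7 for control replicate 8, 20 for control replicate 5 and 1 for PAPA-NONOate replicate 2. The share of all genes with extremes in these libraries was not counted, so that the counts do not set the proteasome genes apart. By summed FPKM control replicate 8 was the highest of all libraries (605493) and PAPA-NONOate replicate 2 the lowest (394921). Control replicate 5 had the lowest sum of the controls (470676). The mean log2 level of the 38 genes less the median gene of the library was 1.66 ± 0.13 in controls, from 1.49 (replicate 5) to 1.87 (replicate 8), and 1.84 ± 0.10 with PAPA-NONOate, from 1.67 (replicate 5) to 1.92 (replicate 2) (SD, n = 5 per group). The groups overlapped through control replicate 8, which lay above PAPA-NONOate replicates 4 and 5, while the other 4 controls lay under all treated libraries. Control replicate 3 at 1.669 and PAPA-NONOate replicate 5 at 1.670 were nearly tied. PAPA-NONOate replicate 2 thus had low proteasome FPKM and the highest level against its own median gene, and after median-ratio scaling it held the highest value of 15 of the 39 genes.

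**Figure D3:**
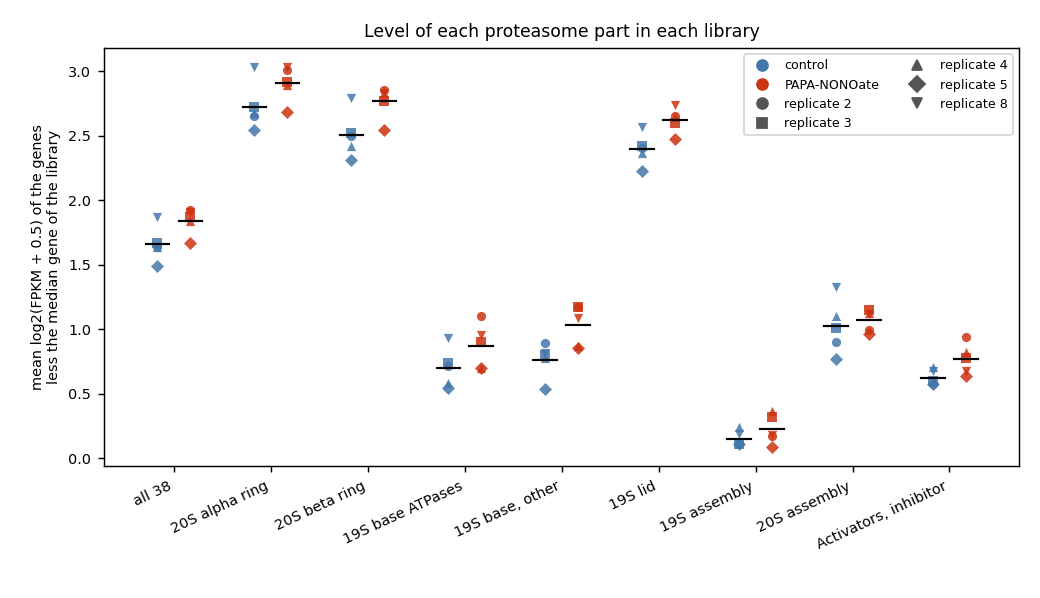
Mean log2(FPKM + 0.5) of the 38 proteasome genes and of each role, less the median gene of the library, with one marker per library (shape for the replicate number) and a bar for the group mean. The 38 genes together lie at 1.49 to 1.87 in controls and at 1.67 to 1.92 with PAPA-NONOate, and control replicate 8 lies above the other controls in the alpha ring, the beta ring and the lid.

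The summed FPKM of the members was 2486 ± 416 in controls and 2510 ± 257 with PAPA-NONOate (SD, n = 5 per group). As a share of the summed FPKM of the library it was 0.461% in controls (0.411% to 0.503%) and 0.523% with PAPA-NONOate (0.486% to 0.568%). The sum over all genes was 394921 to 535194 FPKM with PAPA-NONOate and 470676 to 605493 FPKM in controls. The spread between treated libraries was small for these genes: the median coefficient of variation of the members was 10.7% within the PAPA-NONOate group, where it was 20.8% over all genes tested. Within the control group it was 17.2%, near the 17% of all genes, and after scaling it was 12.7% (14.6% over all genes). In the PAPA-NONOate group it was 10.5% after scaling (16.8% over all genes). The members differ in level from all genes tested, with 1.51% of genes above PSMB4 and 86.9% above PSME4. Their spread was not compared with that of genes of like level.

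**Figure D4:**
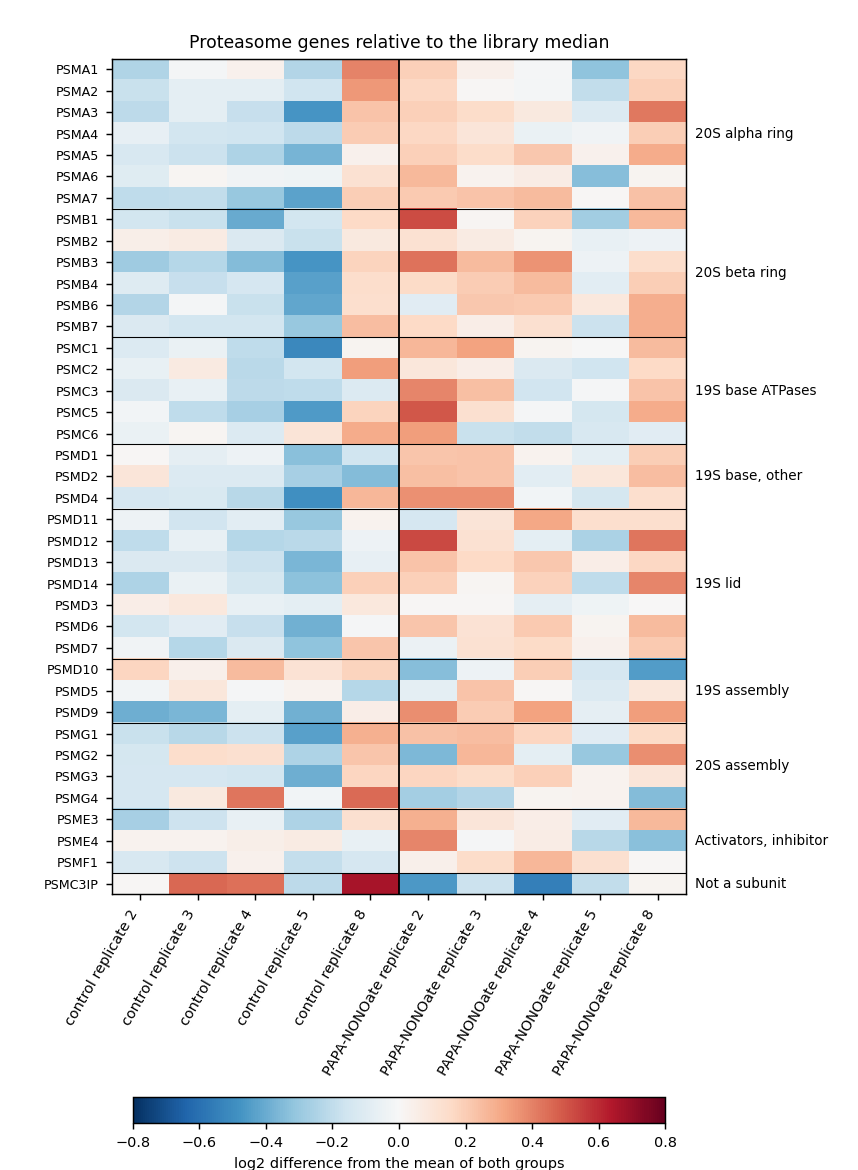
Log2 level of each of the 39 genes (rows, by role) in the 10 libraries (columns), less the library's median gene and the gene's own mean over the 10 libraries, with red for higher and blue for lower. Controls 2, 3, 4 and 5 are below the gene's mean for 28 to 35 of the 39 genes and PAPA-NONOate replicates 2, 3, 4 and 8 above it for 26 to 34, while control replicate 8 is above for 30 and PAPA-NONOate replicate 5 below for 28.

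By role, 11 of 13 genes of the 20S core and 12 of 15 subunits of the 19S particle had a fold change above the median of all genes, with medians of 0.07 in both on the deposited scale. The 3 chaperones of the base and the 4 of the core had medians of -0.16 and -0.11. After median-ratio scaling the medians were 0.26 for the 20S core and 0.25 for the 19S subunits. They were 0.00996 for the chaperones of the base and 0.08 for those of the core, so that the sign of both chaperone medians depended on the scale. Of the chaperone genes only PSMD5, the median of the base chaperones, itself changed sign with this scaling. The sign of the alpha ring median changed too, at -0.06 as deposited and 0.13 after scaling. No role as a whole was tested, since the members were taken up with results of these data known.

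Genes that work with the proteasome were mostly not called, which was true of all genes tested too, of which 9.34% were called. The counts of the lists that follow stand beside that share and were not tested against it. Of 15 other proteasome factors 1 was higher, where 1.93% of all genes were. This was ZFAND2A, a zinc finger protein that binds the proteasome under arsenite stress in mammals, at 70.2 ± 16.2 FPKM with PAPA-NONOate and 37.8 ± 11.3 FPKM in controls (SD, n = 5 per group), with a log2 fold change of 0.91 ± 0.22 (SE) at an adjusted p of 0.0221. Its groups did not overlap. The call was lost without control replicate 4 (adjusted p = 0.052), without PAPA-NONOate replicate 4 (adjusted p = 0.0511) and without a filter on low values (adjusted p = 0.0534). The exact Wilcoxon test gave ZFAND2A an adjusted p of 0.0852, the lowest that this test gave any gene here. ADRM1, the ubiquitin receptor of the base, had -0.20 ± 0.13 (SE) at an adjusted p of 0.337, and POMP, which matures the core, had 0.04 ± 0.12 (SE) at an adjusted p of 0.869.

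The list of transcription factors and processing enzymes that control proteasome genes had no call among 14 genes tested, with a median log2 fold change of -0.09. NFE2L1, the factor that restores proteasome transcripts when the protease is blocked, was at 75.7 ± 26.9 FPKM with PAPA-NONOate and 82.1 ± 9.71 FPKM in controls, a log2 fold change of -0.19 ± 0.23 (SE) at an adjusted p of 0.615. NFE2L2, the related factor of the oxidative stress response, was at 82.96 ± 16.7 FPKM with PAPA-NONOate and 83.9 ± 7.28 FPKM in controls, a log2 fold change of -0.04 ± 0.15 (SE) at an adjusted p of 0.897. The spread of NFE2L1 in the treated group was wide, and its interval spanned -0.69 to 0.31.

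Upstream of the proteasome, none of 5 genes for ubiquitin and its activating enzymes was called, and the ubiquitin gene UBB had a log2 fold change of 0.00 ± 0.13 (SE) at an adjusted p of 0.989. None of 15 genes of the p97 unfoldase and of ubiquitin shuttles was called. VCP, which is p97 itself, was at 332 ± 42.3 FPKM with PAPA-NONOate and 338 ± 61.8 FPKM in controls, a log2 fold change of -0.01 ± 0.15 (SE) at an adjusted p of 0.969. SQSTM1, the autophagy receptor p62, had 0.52 ± 0.24 (SE) at an adjusted p of 0.178. Of 34 deubiquitinases, which take ubiquitin off proteins, 2 were called, beside 9.34% of all genes. UCHL1, known from neurons, rose from 3.57 ± 0.948 to 11.4 ± 3.43 FPKM, a log2 fold change of 1.53 ± 0.22 (SE) at an adjusted p of 0.00179. USP21 fell from 3.62 ± 0.766 to 1.66 ± 0.315 FPKM, a log2 fold change of -0.93 ± 0.18 (SE) at an adjusted p of 0.00662 (SD, n = 5 per group). Neither had overlapping groups.

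The COP9 signalosome and the translation factor eIF3 share subunit folds with the lid, and none of 9 and none of 11 of their genes was called, with median log2 fold changes of -0.11 and -0.17. The CCT chaperonin, which folds actin and tubulin, had no call among 7 genes and a median of -0.04. These medians lay 0.07 (COP9), 0.01 (eIF3) and 0.13 (CCT) above that of all genes, where the proteasome median lay 0.21 above it, and the differences between lists were not tested. At an unadjusted p under 0.05, where 28.1% of all genes lay, limma gave 4 of the 15 other proteasome factors, 6 of the 34 deubiquitinases, 2 of the 14 regulators, 0 of the 5 ubiquitin genes, 1 of the 15 p97 and shuttle genes, 1 of 9 for COP9, 2 of 11 for eIF3 and 0 of 7 for CCT. After median-ratio scaling, where 6.96% of all genes were called higher, 0 of 9 COP9, 2 of 11 eIF3 and 0 of 7 CCT genes were. On that scale 3 of the 15 other proteasome factors, 3 of the 14 regulators and 1 of the 15 p97 and shuttle genes were higher. So were 2 of the 34 deubiquitinases and 0 of the 5 ubiquitin genes.

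**Figure D5:**
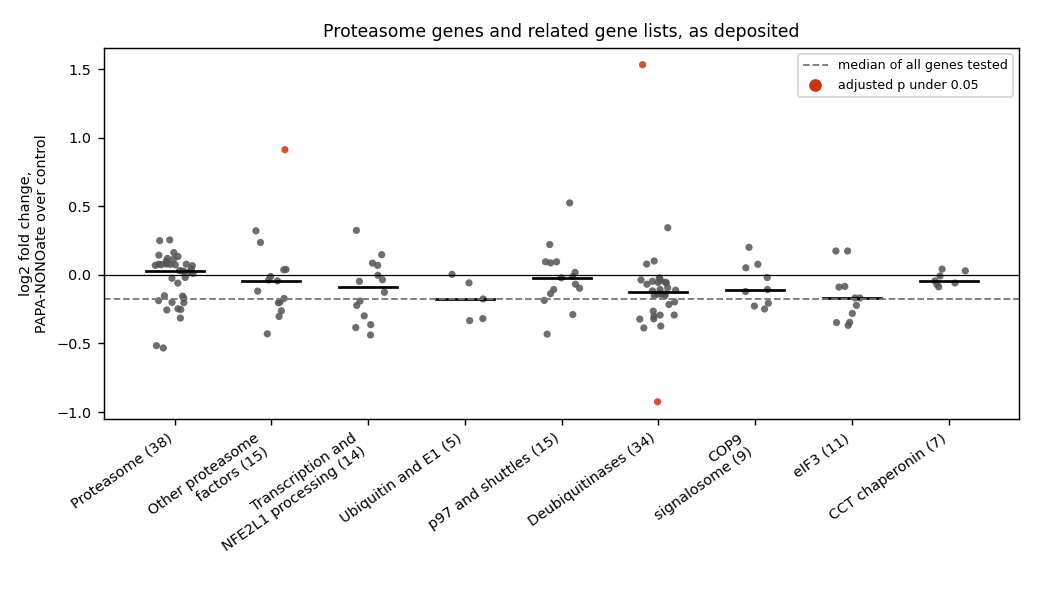
Log2 fold change (PAPA-NONOate over control, deposited scale) of each gene in the proteasome group of 38 and in related lists, with the number tested in brackets, a bar at each median and a dashed line at the median of all genes. The proteasome median is 0.03 and that of the related lists -0.02 to -0.18, and the red points, past the threshold, are ZFAND2A, UCHL1 and USP21.

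Cell type markers also moved between these groups. Rises and falls given here are calls on the deposited scale, where 7.41% of all genes were called lower and 1.93% higher. The lists were not tested against these shares. Of macrophage and myeloid markers 5 of 11 fell, with a summed level of 150 to 399 FPKM with PAPA-NONOate and 439 to 793 in controls. Of fibroblast markers 3 of 7 fell (289 to 1059 against 972 to 1913 FPKM). In the lymphocyte list 3 of 9 genes were tested, and all 3 fell (summed level 27.4 to 73.7 against 80.2 to 129 FPKM). Most of that sum came from BLB2, at 44.4 against 83.5 FPKM, which does not mark lymphocytes alone. The T cell markers CD3E and CD3D were at 1.04 and 2.65 FPKM with PAPA-NONOate and at 3.25 and 7.14 FPKM in controls. With its treated level near 1 FPKM, CD3E met the limit for testing mainly through the controls, and its call carries little weight. Endothelial markers, which define the vascular part of the choroid, were present in all libraries, and 1 of 8 fell (350 to 545 against 430 to 583 FPKM). Smooth muscle markers had 1 of 5 higher, nerve and glia markers 1 of 6 lower, and LRAT, the 1 tested marker of the pigment epithelium, fell. The smooth muscle call was CNN1, at 2.91 FPKM with PAPA-NONOate and 0.646 FPKM in controls. LRAT was at 0.760 against 1.98 FPKM and TEK, the endothelial call, at 1.04 against 2.29 FPKM. Their lower group lay near or under 1 FPKM. They thus met the limit for testing mainly through the group where they were higher, and these calls carry little weight. Melanocyte markers had 0 of 6 called by limma (0 at an unadjusted p under 0.05; 10.7 to 185 against 19.1 to 459 FPKM), and red cell markers 0 of 4 (1 unadjusted). The retinal markers PDE6C and ARR3 were listed at 0 in every library. The part of these cell types in the level of the proteasome genes was not tested.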

How the data were processed

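Poly(A)-selected RNA was sequenced from 10 choroid samples, put into 2 groups of 5 by title. The authors deposited FPKM in 1 table. Cufflinks, SAMtools and the build GRCg6a were used, per the submitters' processing notes. The sources used here give neither their versions nor the aligner and annotation. Values of 999999999 (14 in 10 genes) were treated as missing and these genes left out. A 0 in such a table can be a failed estimate.

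Genes reaching 1 FPKM in 5 or more libraries were tested with limma 3.58.1 (R 4.3.3, mean-variance trend, 8 residual and 4.83 prior degrees of freedom) on log2(FPKM + 0.5), which understates the change of low genes. Adjusted p-values are from limma with Benjamini-Hochberg adjustment over all genes tested unless another test is named, with a threshold of 0.05, and the test was tried on simulated data. Libraries of a group correlated at 0.930 to 0.978 and none was taken for a duplicate. Relative depth came from the most common ratio of low FPKM to those of the same genes in control replicate 2.

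The members, roles, gene lists and alternatives were chosen with earlier results of these data known. Values in every library were given by rule for called members, PSMB6, PSMB7, PSMD4, PSMD14, PSME3, PSME4, PSMF1 and the members with the largest and smallest fold change. For PSMA5, PSMA7, PSMB3, PSMB4, PSMC6, PSMD6, PSMD10, PSMD13 and PSMG4 they were chosen after their values were seen. Of the other lists, called genes and ADRM1, POMP, NFE2L1, NFE2L2, UBB, VCP and SQSTM1 were named by rule. Alternatives were scaling by median ratios, a replicate block, quantile normalization, pseudocounts of 0.1 and 1, leaving out each library, library weights, an exact Wilcoxon test, and a filter at 5 FPKM or none. Median-ratio scaling was combined with leaving out PAPA-NONOate replicates 2 and 5, and, chosen after seeing the data, with leaving out each other library. Figures were drawn with matplotlib 3.10.9.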

Additional observations from a re-analysis of the deposited data

Results flagged for a closer look

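In groups of 5 libraries, a single library stood apart from the others, with a gap to its neighbour of over 0.71 of the group's range, in 6 of 98 groups looked at (49 genes, 2 groups each). Chance gives about 1 in 20. In PAPA-NONOate replicate 2, PSMA7 was at 78.5 FPKM with the nearest library at 98.96, PSMB6 was at 93.0 with the nearest at 144, and PSMD7 was at 150.0 with the nearest at 209. These 3 subunits, of the alpha ring, the beta ring and the lid, were lowest of their group there on the deposited scale. After median-ratio scaling PSMA7 was at 104 in this library, above PAPA-NONOate replicate 5 at 91.0. PSMB6 was at 123 with the nearest at 140 and PSMD7 at 198 with the nearest at 211, so that the gaps shrank. That library also had the lowest scaling factor (0.756) and the lowest summed FPKM (394921). PSME4 was at 1.54 FPKM in PAPA-NONOate replicate 8, with the nearest at 2.01. POMP, which matures the 20S core, was highest in PAPA-NONOate replicate 8 at 50.7 FPKM, with the nearest at 43.5. UBB, a ubiquitin gene, was highest in control replicate 8 at 557 FPKM, with the nearest at 417.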

How the results depend on the processing

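The deposited scale decided the count of proteasome genes called higher. As deposited, this count was 0 with all 10 libraries and stayed 0 whichever 1 was left out. With median-ratio scaling it was 6, and it ran from 1 to 8 when 1 library was left out. Quantile normalization gave 4. A replicate block on the median-ratio scale gave 9 (8.16% of all genes), which were the 6 with PSMA3, PSMC1 and PSMC5. The count called lower was 1 as deposited, 0 without a filter, after quantile normalization or by the exact Wilcoxon test, 3 with library weights (PSMC6, PSMG4 and PSMC3IP), and 0 to 2 with 1 library left out. Over all genes 1061 were called as deposited, 605 with a filter at 5 FPKM, 1807 with library weights and 1890 with a replicate block after median-ratio scaling. With 1 library left out, 604 to 1813 were called on the deposited scale and 1000 to 1816 after median-ratio scaling. The exact Wilcoxon test called 0 (2352 unadjusted). No gene, member or not, could pass it here, since even groups without overlap came to an adjusted p of 0.0852. The split moved from 219 higher and 842 lower to 790 and 749 after median-ratio scaling and to 733 and 680 after quantile normalization. The median of the 38 genes stayed above that of all genes in every alternative run, by 0.11 to 0.26 on the log2 scale.

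Fold changes near 0 changed sign with the scale. After median-ratio scaling, with or without a replicate block, the log2 fold change was 0.032 for PSMA2, 0.13 for PSMA4, 0.014 for PSMB2, 0.16 for PSMB7, 0.17 for PSMD7, 0.00996 for PSMD5, 0.15 for NFE2L2 and 0.17 for VCP. After quantile normalization it was 0.075 for PSMA4, 0.024 for PSMA6, 0.0903 for PSMB7, 0.10 for PSMD7, 0.11 for PSMD5, 0.034 for PSME4, 0.075 for NFE2L2 and 0.12 for VCP. With library weights it was 0.017 for PSMA4, 0.053 for PSMB7, 0.099 for PSMD7, 0.054 for NFE2L2 and 0.049 for VCP. The cause was not tested beyond the scaling itself.

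With 1 library left out, 28 fold changes reached the other sign, 20 of them on the deposited scale and 8 (ADRM1, PSMA1, PSMA2, PSMA6, PSMB2, PSMC2, PSMD5 and PSMG2) only together with median-ratio scaling. The ranges that follow pool the left-out fits of both scales, so that they also hold the shift from scaling. On the deposited scale alone, PSMB4 ran from -0.029 to 0.16, PSMD4 from -0.051 to 0.18, POMP from -0.016 to 0.12 and ADRM1 from -0.29 to -0.14. The pooled log2 ranges were ADRM1 -0.29 to 0.0203, NFE2L1 -0.35 to 0.14, NFE2L2 -0.11 to 0.21 and POMP -0.016 to 0.30. PSMA1 had -0.28 to 0.091, PSMA2 -0.22 to 0.12 and PSMA3 -0.037 to 0.35. Further ranges were PSMA4 -0.13 to 0.19, PSMA6 -0.24 to 0.055, PSMB2 -0.24 to 0.036, PSMB4 -0.029 to 0.33, PSMB6 -0.027 to 0.32, PSMB7 -0.11 to 0.24 and PSMC2 -0.27 to 0.054. Next came PSMC5 -0.00998 to 0.35, PSMD1 -0.059 to 0.25, PSMD11 -0.0699 to 0.25, PSMD14 -0.064 to 0.28, PSMD4 -0.051 to 0.35, PSMD5 -0.21 to 0.045 and PSMD7 -0.11 to 0.24. The others were PSME3 -0.033 to 0.27, PSMF1 -0.035 to 0.24, PSMG1 -0.027 to 0.36, PSMG2 -0.36 to 0.0105, PSMG3 -0.055 to 0.29, UBB -0.037 to 0.27 and VCP -0.11 to 0.22. None of the 28 was called as deposited.

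The replicate block called 893 genes, and no member call changed with it on the deposited scale. It called 4 of 6 melanocyte markers lower (adjusted p 0.00765 to 0.015), which were not called without it, 1 red cell marker and 1 nerve and glia marker more as higher, and the 1 endothelial marker no longer. Replicate numbers were not treated as pairs in the main fit, since the labels do not say what they mark. The deviations of same-numbered libraries correlated at 0.00348 (replicate 2), 0.288 (3), 0.303 (4), -0.0229 (5) and 0.186 (8). Treated libraries 3, 4 and 8 correlated best with their own number, the highest other values being 0.00438, 0.036 and 0.073. Treated libraries 2 and 5 did not, with highest other values of 0.142 and 0.34. With FPKM only, the absolute depth behind the lowest genes, such as PSME4 and PSMD5, is unknown.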
